A study of Mus musculus with 6 samples.

Results

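Ewsr1, Taf15 and Tardbp are 3 of the 18491 genes whose messenger RNA was measured by RNA sequencing in mouse brain. Ewsr1 and Taf15 belong to the FET family of RNA-binding proteins, and Tardbp encodes TDP-43. They were selected by name from the gene symbols of the expression table, with earlier knockout and wild-type values of the same table known. Their differences between the genotypes are therefore given as a description, with no test. Brains came from C57BL/6N mice, an inbred laboratory strain, at postnatal day 28. There were 3 libraries of the wild type and 3 of the homozygous Mettl5-/- knockout, and no treatment or other allele is given in the labels. Mettl5 encodes an enzyme that methylates an adenosine of the small-subunit ribosomal RNA. The labels do not give the deleted part of the gene, the sex of the mice, or whether each library came from a different animal, so the spread between libraries may be technical.

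FET proteins carry a low-complexity stretch rich in serine, tyrosine, glycine and glutamine, an RNA recognition motif, a zinc finger and arginine- and glycine-rich repeats. They shuttle between nucleus and cytoplasm, associate with RNA polymerase II and with the U1 small nuclear ribonucleoprotein, and affect transcription and splicing. EWSR1 is known in human sarcomas as the fusion partner of ETS transcription factors, and TAF15 associates with the general transcription factor TFIID. TDP-43 binds UG-rich RNA, represses the use of cryptic exons, and lowers its own messenger RNA through a site in the last exon. In human amyotrophic lateral sclerosis and frontotemporal dementia, TDP-43 leaves the nucleus of affected neurons and forms cytoplasmic inclusions, and TAF15 is found in inclusions of a subtype of frontotemporal dementia.

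Promoter sequence is shown because the 3 genes, although grouped by protein, differed in level and in the sign of their mean difference between the genotypes. For Taf15 and Tardbp the genotypes overlapped and the difference was smaller than its SE, so no direction is established for either. A link between promoter sequence and these levels was not tested. Windows of 250 bases before 1 annotated start per gene come from RefSeq on GRCm38.p6, the assembly named mm10 in the submitters' notes, and all 3 genes were found in that table. The windows are chr11:5099097-5099346 for Ewsr1 on the minus strand, chr11:83472858-83473107 for Taf15 on the plus strand, and chr4:148626997-148627246 for Tardbp on the minus strand. Other transcripts of the same genes start farther out, so 11 bases of the Ewsr1 window, 35 of the Taf15 window and 88 of the Tardbp window lie within the gene spans given below. All 250 bases of the Ewsr1 window lie in exons that GENCODE M21 annotates for Ewsr1 or for Rhbdd3 on the opposite strand, and that window is not printed. For Taf15 and Tardbp the bases outside the gene span and outside any annotated exon are printed, 5′ to 3′ along the gene, 215 for Taf15 (chr11:83472858-83473072) and 162 for Tardbp (chr4:148627085-148627246). Capitals mark matches on either strand to GGGCGG, known as the GC box, or to CCAAT.
Taf15: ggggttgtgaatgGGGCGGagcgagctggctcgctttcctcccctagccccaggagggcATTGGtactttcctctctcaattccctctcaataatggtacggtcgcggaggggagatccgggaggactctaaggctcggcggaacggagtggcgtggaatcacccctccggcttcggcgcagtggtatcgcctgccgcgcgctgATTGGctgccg
Tardbp: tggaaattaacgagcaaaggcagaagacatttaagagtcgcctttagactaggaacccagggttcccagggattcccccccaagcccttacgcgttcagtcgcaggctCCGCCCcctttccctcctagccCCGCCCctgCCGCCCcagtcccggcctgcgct
The Tardbp window held 3 GC boxes and the Taf15 window held 1 GC box and 2 matches to CCAAT, all in the printed bases and with no overlap between these letters. The Ewsr1 window held neither. Over all 32851 RefSeq promoter windows of 250 bases, 32.7% held GGGCGG and 33.8% held CCAAT. None of the 3 windows held TATAAA (12.4% of all windows) or the ETS letters CCGGAAG (6.91%), both searched on either strand. All 3 windows were rich in G and C, with 65.6% in Ewsr1, 66.8% in Taf15 and 63.6% in Tardbp, against a median of 52.4% over all windows. They held 31, 25 and 24 CG dinucleotides, against a median of 6. These matches describe letters only and show no binding.

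Values are FPKM, a fragment count divided by transcript length and by the mapped total of the library, as the authors deposited them. The table rested on 4 RefSeq transcripts for Ewsr1 (gene ID 14030; chromosome 11, 5069687 to 5099107), 1 for Taf15 (gene ID 70439; chromosome 11, 83473073 to 83506743) and 6 for Tardbp (gene ID 230908; chromosome 4, 148612382 to 148627084). All positions are on GRCm38. In GENCODE M21 the matching Ewsr1 transcripts are 1290 to 2588 bases long, the Taf15 transcript is 2068 bases long, and the Tardbp transcripts are 1904 to 7477 bases long. The longest coding parts correspond to 655 residues for Ewsr1, 557 for Taf15 and 414 for Tardbp. A gene-level FPKM depends on how the fragments were divided among these transcripts, and transcript-level values were not analysed here.

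FPKM sums per library ran from 350727 to 377334, and the number of reads behind them is unknown, since FPKM gives none. Mettl5 itself was lower in all 3 knockout libraries, at 2.79, 3.81 and 2.40 FPKM, than in the wild-type libraries, at 4.78, 5.16 and 5.92 FPKM, and was not absent. Markers of neurons, oligodendrocytes, astrocytes and microglia were expressed in every library, as the brain label requires. Composition differed between libraries. Knockout library 2 stood apart in cerebellar granule neuron markers, with a summed level of 416 FPKM over 5 genes against 24.4 to 50.4 in the other libraries. Knockout library 3 was lowest in oligodendrocyte markers, with 2106 FPKM over 10 genes against 5283 to 7609 elsewhere, and in thalamic neuron markers, with 22 FPKM over 5 genes against 69.5 to 108.

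Ewsr1 was the most abundant of the 3 transcripts in every library, followed by Tardbp and then Taf15, and no library departed from this order. The wild-type means were 74.2 ± 1.9 FPKM for Ewsr1, 26.5 ± 1.5 FPKM for Tardbp and 14.7 ± 2.2 FPKM for Taf15 (SD, n = 3 each). The ranges of neighbours in this order did not touch. By wild-type mean, Ewsr1 ranked 956th of the 18491 genes, Tardbp ranked 3037th and Taf15 ranked 5217th. In single libraries, 94.7% to 95.8% of all genes lay below Ewsr1, 82.8% to 85.1% below Tardbp and 68.0% to 74.3% below Taf15. FPKM is scaled to transcript length, so these levels can be set beside each other within a library.

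**Figure D1:**
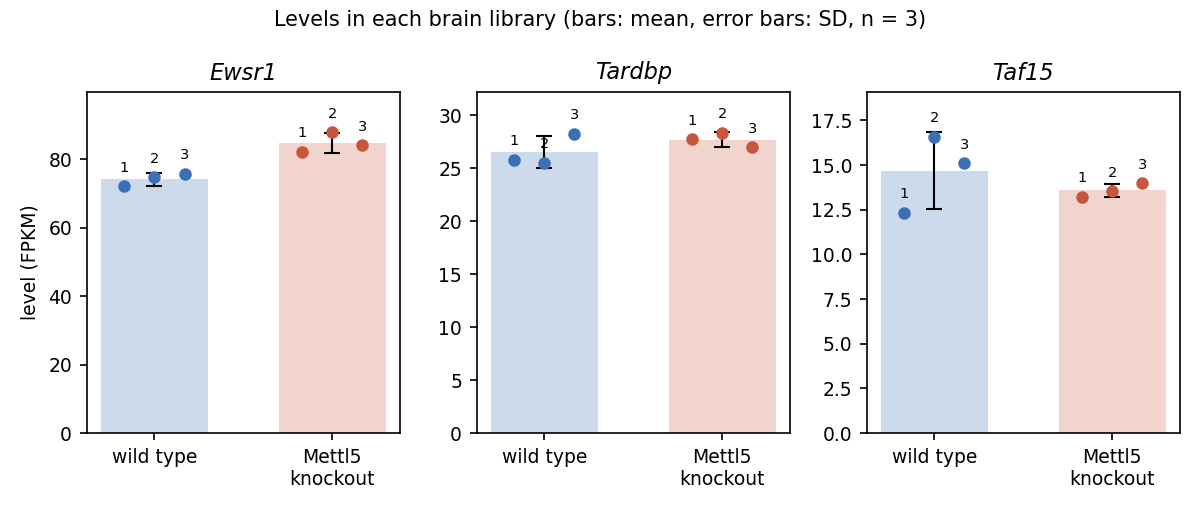
Level in FPKM (linear axis from 0, a separate scale for each gene) of Ewsr1, Tardbp and Taf15 in the 3 wild-type and 3 Mettl5 knockout brain libraries; points are libraries with their replicate number, bars the mean and error bars the SD. The knockout points of Ewsr1 (82.14 to 87.87) lie above all its wild-type points (72.05 to 75.72), while the genotypes overlap for Tardbp and Taf15.

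Ewsr1 was higher in the knockout libraries than in the wild-type libraries, by a small amount. The level was 72.05, 74.78 and 75.72 FPKM in wild-type libraries 1, 2 and 3, and 82.14, 87.87 and 84.03 FPKM in knockout libraries 1, 2 and 3. The lowest knockout value was above the highest wild-type value, so the genotypes did not overlap. The knockout mean was 84.7 ± 2.9 FPKM (SD, n = 3), which is 1.14 times the wild-type mean, a difference of 0.19 on the log2(FPKM + 1) scale (SE 0.079 from limma). Ewsr1 was the 1 member of 3 in which the genotypes did not overlap. Over the 12885 genes tested, those averaging at least 1 FPKM over the 6 libraries, 5.48% were higher in the knockout with no overlap and 6.43% lower, together 11.9%. Because the members were chosen with these values known, nothing is read from that count.

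The mean Tardbp levels of the genotypes lay close together. The level was 25.77, 25.54 and 28.24 FPKM in wild-type libraries 1, 2 and 3, and 27.73, 28.37 and 26.98 FPKM in knockout libraries 1, 2 and 3. Wild-type library 3 was higher than knockout libraries 1 and 3, so the genotypes overlapped. The knockout mean was 27.7 ± 0.70 FPKM (SD, n = 3), 1.04 times the wild-type mean, and the log2(FPKM + 1) difference was 0.062 (SE 0.081).

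Taf15 was the least abundant and the most variable in the wild type. The level was 12.33, 16.58 and 15.11 FPKM in wild-type libraries 1, 2 and 3, and 13.23, 13.53 and 13.99 FPKM in knockout libraries 1, 2 and 3. Every knockout value lay inside the wild-type range. The knockout mean was 13.6 ± 0.38 FPKM (SD, n = 3), 0.926 times the wild-type mean, and the log2(FPKM + 1) difference was -0.095 (SE 0.11). The SD was 14.7% of the mean in the wild type and 2.82% in the knockout. For Ewsr1 these shares were 2.57% and 3.45%, and for Tardbp 5.65% and 2.51%. With 3 libraries a group, an SD is itself imprecise, and the spreads were not compared by a test.

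Libraries with the same replicate number deviated together across genes, so the differences were also taken within each number. Ewsr1 was higher in the knockout within all 3 numbers, by 0.19, 0.23 and 0.15 on the log2(FPKM + 1) scale for numbers 1, 2 and 3. Tardbp differed by 0.10, 0.15 and -0.064. Taf15 differed by 0.094, -0.27 and -0.10. The members therefore had mixed signs: only number 1 had all 3 genes higher in the knockout.

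**Figure D2:**
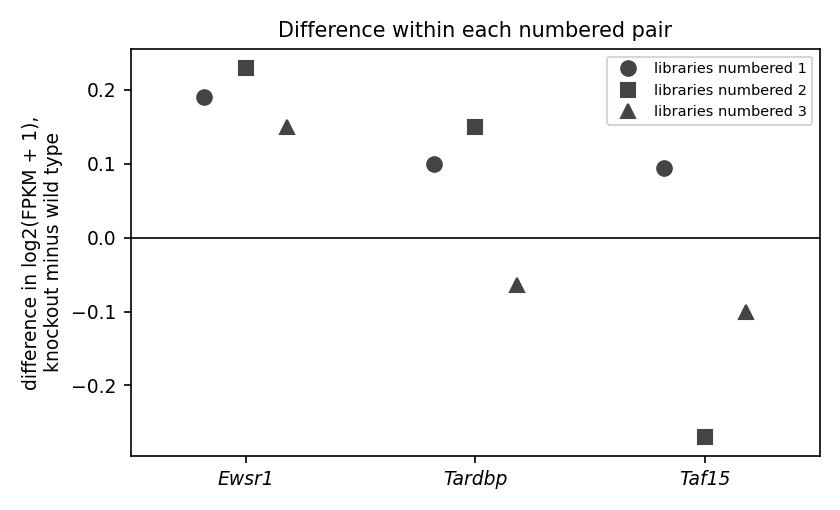
Difference in log2(FPKM + 1), knockout minus wild type, between libraries of the same replicate number for Ewsr1, Tardbp and Taf15; each marker is 1 pair of libraries and the horizontal line marks no difference. The Ewsr1 markers lie between 0.15 and 0.23, while Tardbp and Taf15 each have markers on both sides of 0.

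Ewsr1 was also higher in the knockout relative to each of the other members. The FPKM ratio of Ewsr1 to Taf15 was 5.84, 4.51 and 5.01 in wild-type libraries 1, 2 and 3 and 6.21, 6.49 and 6.01 in knockout libraries 1, 2 and 3, without overlap. Ewsr1 to Tardbp was 2.80, 2.93 and 2.68 in the wild type and 2.96, 3.10 and 3.11 in the knockout, also without overlap. Tardbp to Taf15 overlapped, with 2.09, 1.54 and 1.87 against 2.10, 2.10 and 1.93. These ratios are built from the values described above and add no independent measurement.

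Levels of some cell type markers differed between the genotypes too, although limma called 0 genes in each of the 10 marker lists after adjustment. All 10 oligodendrocyte markers had a lower mean in the knockout, and their summed level was 6367 to 7609 FPKM in wild-type and 2106 to 5641 FPKM in knockout libraries. These sums did not overlap, nor did those of 6 oligodendrocyte precursor markers, at 114 to 193 FPKM in wild-type and 79.4 to 112 FPKM in knockout libraries. Of these 6 precursor markers, 4 had a lower and 2 a higher mean in the knockout. The sums of the other lists overlapped. All 8 microglial markers had a lower mean in the knockout, with sums of 168 to 214 FPKM against 146 to 185 FPKM. All 5 choroid plexus markers did too, with sums of 371 to 534 FPKM against 254 to 445 FPKM. The 3 red blood cell markers also had lower means, with sums of 21.1 to 1326 FPKM against 4.99 to 247 FPKM, the highest in wild-type library 2. Neuronal markers were lower in 6 of 8, with sums of 2766 to 2880 FPKM against 2705 to 2809 FPKM. Astrocyte markers were lower in 4 of 6 and thalamic neuron markers in 4 of 5, while endothelial markers were higher in 3 of 5. All 5 cerebellar granule neuron markers had a higher mean in the knockout. Their sums were 27.3 to 50.4 FPKM against 24.4 to 416 FPKM, the highest in knockout library 2. Of all these markers, only the haemoglobin gene Hbb-bt was at 0 in a library. The part of cell composition in the member levels was not tested, and in bulk brain a change in the number of cells cannot be told apart from a change in RNA per cell. Without knockout library 2, with its high cerebellar markers, the Ewsr1 difference was 0.16, and without knockout library 3, with its low oligodendrocyte and thalamic markers, it was 0.19. It was also 0.19 without wild-type library 2, with its high red blood cell markers. Oligodendrocyte sums of knockout libraries 1 and 2, at 5283 and 5641 FPKM, lay below the wild-type range too. Leaving out knockout library 3 therefore does not remove that difference, and nothing about composition is read from these values.

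The Taf15 and Tardbp differences kept their sign, and their lowest and highest values came from leaving out single wild-type libraries. Taf15 differed by -0.21 without wild-type library 1 and by -0.0073 without wild-type library 2. Tardbp differed by 0.036 without wild-type library 2 and by 0.11 without wild-type library 3. Ewsr1 stayed between 0.16 and 0.22 under all 12 alternatives tried, of which the replicate block and the missing filter could not change it.

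**Figure D3:**
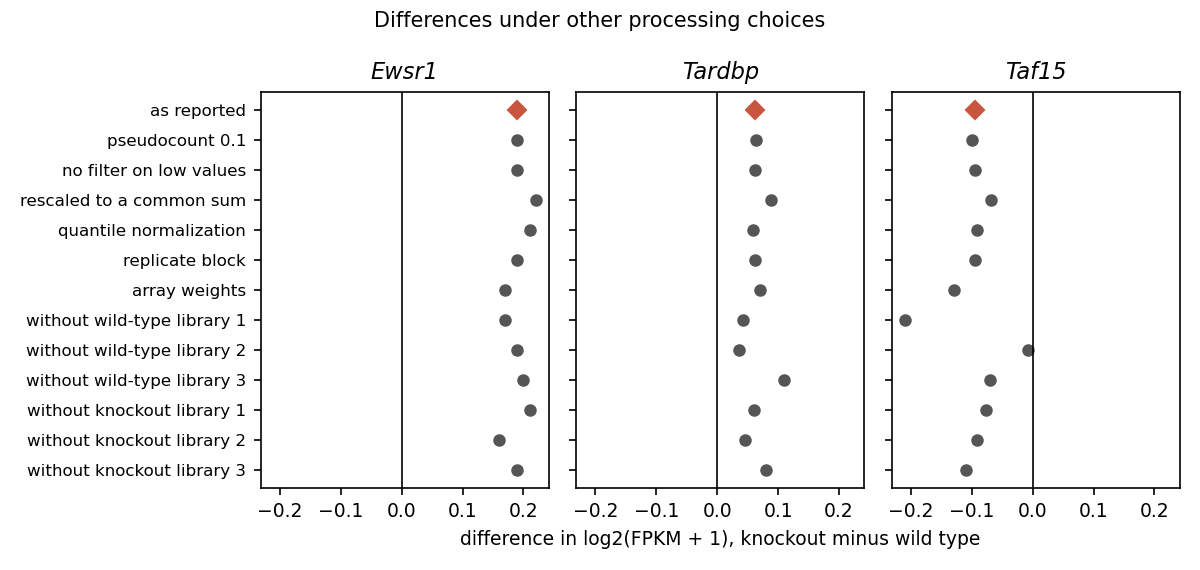
Difference in log2(FPKM + 1), knockout minus wild type, of each gene as reported (diamond) and under 12 other processing choices (circles), with the vertical line at no difference. Ewsr1 stays between 0.16 and 0.22, and Taf15 spreads from -0.21 to -0.0073 when wild-type library 1 or 2 is left out.

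Genes next to the members in the RefSeq gene table did not share the Ewsr1 pattern in their means. Rhbdd3, a rhomboid-domain gene, overlaps the start of Ewsr1 by 826 bases. It had 5.99 ± 0.59 FPKM in wild-type and 5.83 ± 0.93 FPKM in knockout libraries (SD, n = 3 each). Gas2l1, a cytoskeletal linker gene 4338 bases beyond the other end of Ewsr1, had 23.0 ± 1.7 and 21.5 ± 1.7 FPKM. Masp2, a serine protease gene of the complement lectin pathway, overlaps the end of Tardbp by 3118 bases and held 0.847 ± 0.19 and 0.693 ± 0.23 FPKM. Mmp28, a matrix metalloproteinase gene beside Taf15, held 0.743 ± 0.15 and 0.627 ± 0.27 FPKM. Gm572, on the other side of Tardbp, was listed at 0 in all 3 wild-type libraries and at most at 0.05 FPKM in the knockout. The strand setting of the counting is not stated in the labels, so fragments from the overlaps with Rhbdd3 and Masp2 cannot be assigned with certainty.

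Patterns most like each member were sought among 6789 genes averaging at least 10 FPKM, by the root-mean-square difference of log2(FPKM + 1) over the 6 libraries after centring each gene on its own mean. For Ewsr1 the nearest genes were Lrrc16b (0.0308), Paxip1 (0.0326), Mta2 (0.0337), Ezr (0.0341) and Cherp (0.0342), against a median of 0.164 over all genes compared. All 5 were higher in the knockout without overlap, which follows from the way they were found. Mta2, a subunit of the NuRD chromatin remodeller, held 14.88, 15.02 and 14.63 FPKM in the wild type and 16.29, 17.05 and 16.53 FPKM in the knockout. For Tardbp the nearest were Casd1 (0.0179), Orc3 (0.0197), Gtpbp2 (0.0198), Xiap (0.0205) and Ppp6r3 (0.0244), against a median of 0.143. For Taf15 they were Ppid (0.0285), Abcb8 (0.0296), Scn2b (0.0329), Dusp7 (0.0386) and Ddah1 (0.0398), against a median of 0.183. The members were not each other's nearest genes. Tardbp was 225th in likeness to Ewsr1 (0.0760), and Taf15 was 3887th (0.176), farther than the median gene.

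The wider question was whether genes that work with these proteins differed between the genotypes. Among 117 genes in 6 lists, all of which were tested, 0 reached the threshold of 0.05 for limma p-values after Benjamini-Hochberg adjustment across 12885 genes. Over all genes tested 0 passed as well, a background of 0%. At an unadjusted p under 0.05 there were 2 of the 117, Hnrnpdl higher and Nefl lower, against 6.05% of all genes (2.37% higher and 3.69% lower). With the replicate number as a block there were 12 of the 117, 7 higher and 5 lower, against 14.3% of all genes, and again 0 passed the adjusted threshold. The genotypes did not overlap in 17 of the 117, 6 higher and 11 lower, or 14.5% against 11.9% of all genes. The median log2(FPKM + 1) difference was 0.011 over the 117 and -0.0032 over all genes tested. All list genes named below had an adjusted p of at least 0.79 in limma, and their values are given as description.

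**Figure D4:**
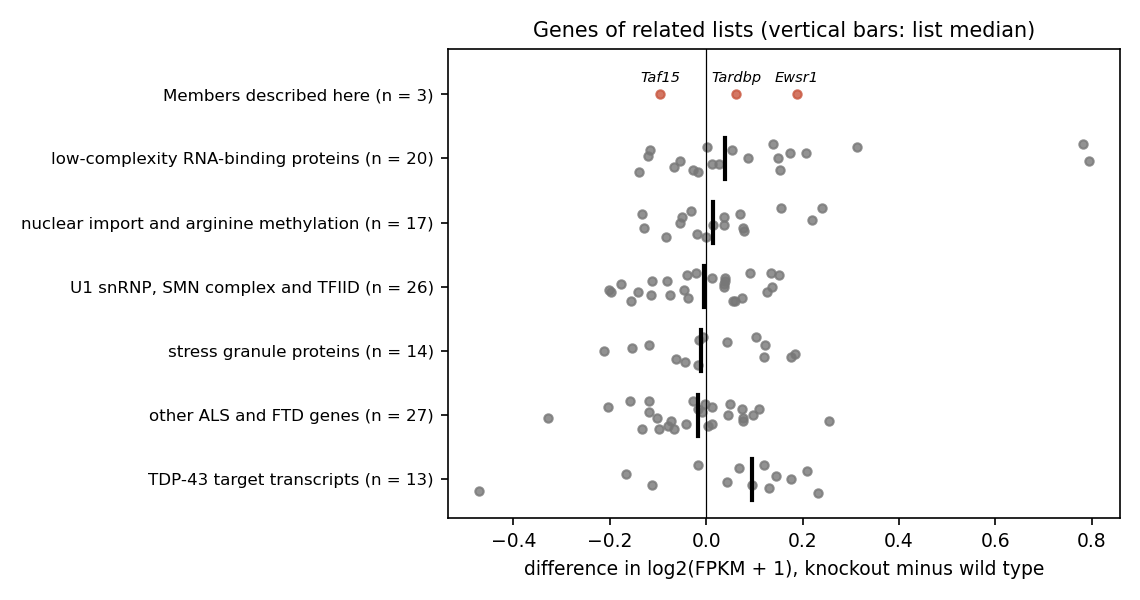
Difference in log2(FPKM + 1), knockout minus wild type, for the 3 members (top row) and for the genes of 6 related lists; each point is 1 gene and vertical bars are list medians. Most list genes lie close to 0, Nefl lies lowest at -0.47, and Cirbp and Rbm3 lie highest at 0.78 and 0.80.

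Other RNA-binding proteins with low-complexity stretches numbered 20. Of these, 13 had a higher and 7 a lower mean in the knockout, with a median log2(FPKM + 1) difference of 0.040. That median was 0.011 without knockout library 2 and 0.093 without knockout library 3. Hnrnpdl, a relative of the AU-rich element binding protein Hnrnpd, held 36.07, 43.23 and 42.92 FPKM in the wild type and 44.93, 55.99 and 51.83 FPKM in the knockout. Hnrnpd held 21.6 ± 0.35 and 24.1 ± 0.46 FPKM, and the paraspeckle gene Pspc1 held 14.9 ± 0.26 and 17 ± 1.3 FPKM (SD, n = 3 each). In these 3 genes the genotypes did not overlap, the knockout being higher. They made up 15% of the list, against 11.9% of all genes tested in either direction and 5.48% for higher alone.

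The cold-inducible RNA-binding proteins had the widest spread. Cirbp held 59.82, 24.04 and 26.89 FPKM in wild-type libraries 1, 2 and 3 and 76.46, 59.84 and 44.84 FPKM in knockout libraries 1, 2 and 3. Rbm3, chosen after its values were seen, held 132.88, 39.79 and 64.23 FPKM and 146.54, 121.41 and 102.13 FPKM. Library 1 was the highest of its genotype for both genes, and wild-type library 1 overlapped the knockout range. The log2(FPKM + 1) difference of Cirbp was 0.78 (SE 0.36) and that of Rbm3 was 0.80 (SE 0.41). Both kept their sign, and their lowest and highest values came from leaving out single wild-type libraries. The Cirbp difference was 1.18 without wild-type library 1 and 0.54 without wild-type library 2, and that of Rbm3 was 1.25 and 0.40.

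Nuclear transport genes and arginine methyltransferases, the enzymes that modify FET proteins, made up a list of 17 genes. It held import carriers, the exporter Xpo1, Cse1l, which returns importin alpha to the cytoplasm, and the GTPase Ran. Their median log2(FPKM + 1) difference was 0.015, with 10 higher and 7 lower, and the genotypes overlapped in every gene. Over all genes tested, the genotypes did not overlap in 11.9%. The list median was -0.022 without knockout library 3 and 0.045 without wild-type library 3. Prmt8, a membrane-bound arginine methyltransferase of neurons, held 31.1 ± 2.7 FPKM in wild-type and 37.1 ± 6.2 FPKM in knockout libraries (SD, n = 3 each). Carm1 held 24.8 ± 2.2 and 27.7 ± 1.8 FPKM, and Prmt6 held 4.68 ± 1.1 and 5.53 ± 0.19 FPKM. Ran, which gives nuclear transport its direction, held 63.6 ± 5.2 and 58.0 ± 3.4 FPKM.

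Subunits of the U1 particle, the SMN complex and TFIID, 26 genes with the nuclear body gene Coil, were balanced, with 13 higher and 13 lower and a median log2(FPKM + 1) difference of -0.0041. The median lay between -0.028 without knockout library 1 and 0.022 after rescaling to a common sum. The genotypes did not overlap in 6 of them, or 23.1%, against 11.9% of all genes tested. Lower in the knockout were Taf13 (20.2 ± 1.2 and 17.5 ± 1.3 FPKM), Taf12 (11.6 ± 0.45 and 10.3 ± 0.26 FPKM) and Gemin2 (5.02 ± 0.38 and 4.26 ± 0.52 FPKM) (SD, n = 3 each). Coil was higher (6.14 ± 0.12 and 6.84 ± 0.22 FPKM). The remaining 2, chosen after their values were seen, were Taf9b, with a log2(FPKM + 1) difference of -0.112, and Taf8, with 0.091. The sign was thus mixed among the TFIID subunits themselves.

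Among 14 stress granule genes the median log2(FPKM + 1) difference was -0.011, with 6 higher and 8 lower. The median turned to 0.054 without knockout library 3, and was -0.035 without knockout library 2. Fxr1, a relative of the fragile X protein, held 25.6 ± 1.0 FPKM in wild-type and 22 ± 2.1 FPKM in knockout libraries, without overlap (SD, n = 3 each). The RNA helicase gene Ddx3x held 55.2 ± 4.5 and 62.8 ± 3.1 FPKM, also without overlap. Fxr1 and Ddx3x made up 14.3% of the list, against 11.9% of all genes tested. Atxn2l (55.0 ± 3.9 and 62.2 ± 3.5 FPKM) and the granule nucleator G3bp2 (68.9 ± 7.6 and 61.6 ± 3.9 FPKM) overlapped.

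Other genes of amyotrophic lateral sclerosis and frontotemporal dementia numbered 27, with 11 higher and 16 lower and a median log2(FPKM + 1) difference of -0.017. The median lay between -0.035 without wild-type library 3 and 0.010 after rescaling to a common sum. The genotypes did not overlap in 4 of the 27, all lower in the knockout, or 14.8%. Over all genes tested the share was 11.9% in either direction and 6.43% for lower alone. The gene 3110043O21Rik, the mouse counterpart of human C9orf72, held 8.48, 8.67 and 9.31 FPKM in wild-type libraries 1, 2 and 3 and 7.97, 8.09 and 7.33 FPKM in knockout libraries 1, 2 and 3, so the knockout was lower without overlap. Vcp, an ATPase of protein quality control, and Pfn1, an actin-binding profilin, were also lower without overlap, with log2(FPKM + 1) differences of -0.102 and -0.134; both were chosen after their values were seen. Chchd10, a mitochondrial protein gene, held 191 ± 33 and 152 ± 27 FPKM with overlap (SD, n = 3 each).

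Transcripts known to be bound or regulated by TDP-43 numbered 13, with 9 higher and 4 lower and a median log2(FPKM + 1) difference of 0.095. That median was -0.0095 without knockout library 3. Nefl, which encodes the neurofilament light chain, held 156.71, 205.40 and 158.80 FPKM in wild-type and 120.55, 128.54 and 122.85 FPKM in knockout libraries, without overlap. Its log2(FPKM + 1) difference was -0.47 (SE 0.12), the lowest among the 117 genes. Nefl was also among the 8 neuronal markers. Cadps, a factor for dense-core vesicle release, held 54.5 ± 0.68 and 50.3 ± 3.4 FPKM, without overlap (SD, n = 3 each). Nefl and Cadps, both lower, made up 15.4% of the list, against 11.9% of all genes tested in either direction and 6.43% for lower alone. Fgf14 held 10.3 ± 1.0 and 12.3 ± 1.3 FPKM, and Efna5 held 7.28 ± 0.84 and 6.40 ± 0.94 FPKM, both with overlap.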

How the data were processed

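Brain messenger RNA of 6 libraries was measured. The deposited values are FPKM per gene, per the file headers, with 1 column per library. Bowtie2, RSEM and the mm10 build are listed in the submitters' processing notes; their versions, the annotation release and the strand setting are not given there. RSEM shares out ambiguous fragments by a probability model. Depth is unknown, so no counting interval is given.

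Genes averaging at least 1 FPKM were fitted with limma 3.58.1 (R 4.3.3; trend, robust prior) on log2(FPKM + 1), which understates changes of low genes, with 2-sided p-values adjusted over 12885 genes. The steps were tested on simulated data. Tables and plots were made with matplotlib 3.10.9, numpy 2.4.6 and pandas 2.3.3 in Python 3.11.15.

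Members and lists were chosen with earlier results of these data known. Named genes were the members, Mettl5, up to 4 genes of lowest unadjusted p per list, the 5 nearest patterns per member, and neighbours. Rbm3, Vcp, Pfn1, Taf8, Taf9b, Xpo1 and Cse1l fall outside this rule. Some genes that this rule covers are not reported here. All 181 list and marker entries were found by gene symbol or synonym, with Nefl and Stmn2 entered both in a list and as markers.

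Deviations from the genotype means correlated across genes between same-numbered libraries (0.485, 0.413 and 0.539), so the numbers were taken to pair them, a choice that rests on the values, since no label states a pairing. Alternatives were another pseudocount, no filter, 2 scalings, the replicate block, array weights and leaving out each library.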

Additional observations from a re-analysis of the deposited data

How the results depend on the processing

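All 36 member values, 3 genes under 12 alternatives, kept their sign and moved by less than the SD between replicates. The replicate block and the missing filter could not move these differences, so they add nothing to that count. Each replicate number holds 1 library of each genotype, and the difference of a gene does not depend on which other genes are kept. With the replicate block the log2(FPKM + 1) differences of Ewsr1, Tardbp and Taf15 were therefore 0.19, 0.062 and -0.095, as reported. Limma called 0 genes over the whole table with the replicate block (lowest adjusted p 0.285). It called 1 gene, Hist2h2aa2, without a filter on low values, and between 0 and 1 gene when single libraries were left out, the 1 being Rps27rt without wild-type library 3. Neither belongs to the members or the lists, whose counts were 0 under every alternative run. Rescaling to a common sum gave Ewsr1 0.22, Tardbp 0.089 and Taf15 -0.068, and shifted the median of all genes to 0.023. At an unadjusted p under 0.05 the split over all genes was 305 higher and 475 lower, and 430 higher and 377 lower after that rescaling. The counts at that p were 316 without wild-type library 2 and 1842 with the block. Absolute depth and transcript-level values, which would show the counting error of each member, were not analysed here.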
